A study of Mus musculus with 4 samples.

Results

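The 46 genes described here encode the machinery of G2 and mitosis: the kinases and cyclins of mitotic entry, the spindle, the kinetochore, the spindle checkpoint and the apparatus of cytokinesis. They were chosen by name, as symbols in the deposited gene tables, and each of the 46 matched 1 of the 55401 genes listed. RNA was sequenced from CD8+ T cells, sorted from the lungs of C57BL/6J mice as cells positive for CD3 and CD8. Mice of the model labelled IPF-LC received either an anti CD4-depleting antibody or an isotype antibody, and mice of the model labelled LC received the same pair. The labels do not spell out either model name, and the age of the mice and the number of mice behind a library are not given in the sources used here. Each of the 4 groups, in the order depleted IPF-LC, isotype IPF-LC, depleted LC and isotype LC, has 1 library, so no value has a replicate error and a ratio compares libraries, not conditions.

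Mitotic genes are transcribed in a wave that begins in S phase and peaks in G2 and M, and some of their products are destroyed as cells leave mitosis. In resting lymphocytes the genes are held off by the DREAM complex, which pairs RB-family and E2F proteins with the MuvB core. In cycling cells MuvB binds B-MYB and FOXM1 instead and the same promoters are activated. The contact point is a short element near the start site, the cell cycle genes homology region (CHR), often accompanied upstream by CCAAT boxes that bind NF-Y. Effector CD8+ T cells pass through this wave as they expand after antigen encounter, and for this reason transcripts such as Mki67 and Top2a are widely read as marks of dividing cells.

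Gene levels below are CPM, counts-per-million scaled by TMM factors that correct for library composition, or TPM (transcripts-per-million) where genes are compared with each other, since TPM accounts for length. A ratio is the log2 of the first-named library over the second. The interval in parentheses is an exact 95% binomial interval of the counts. It covers counting error only, because amplified reads without molecular identifiers are not independent molecules and because animals are not replicated. Library totals lay between 14946579 and 16217677 expected counts. Member counts ran from 16 for Kif2c to 3110 for Top2a in a library, and the mean of each of the 46 was at least 2.34 CPM, so that none fell under the minimum of 1 CPM used for the whole table, which left 12231 genes. The sorted cells carried CD8 transcripts, with Cd8a at 353 CPM in depleted and 518 in isotype IPF-LC cells, and 452 CPM in depleted and 476 in isotype LC cells. Exons of 14 members, among them Ccna2, Kif4, Kif20a, Nusap1, Tacc3, Prc1 and Cdc20, overlap those of another gene in the GENCODE M21 annotation, so that their counts are uncertain where strand was not used. In bulk RNA, fewer dividing cells and less mitotic RNA per dividing cell cannot be told apart.

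Because the members share a mode of control, their promoters were examined for the elements named above. Of the 46 genes, 38 had an entry among RefSeq promoters of mouse build GRCm38.p6, with 40 promoters in all, each running from 250 bases before the start site to 50 after it. The CHR core was searched as TTTGAA or TTCGAA or TTTAAA and the CCAAT box as CCAAT, each on both strands. TTCGAA and TTTAAA read the same on both strands and no CHR word contains CCAAT or its reverse complement. A CHR core was found in 34 of the 40 promoters (85.0%), against 28.8% of all 32851 promoters in the table, and a CCAAT box in 30 (75%), against 37.4%. Both elements were present in 29 (72.5%), against 11.3% of all promoters. Within 60 bases of the start site, 31 member promoters (77.5%) held a CHR core, against 9.75% of all. E2F words (any of TTTGGCG or TTTCGCG or TTTCCCG or TTTGCCG, on both strands) were in 6 (15%), against 6.7%. A match describes the letters only and is not evidence of binding in these cells.

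The following stretches are shown because they place the CHR core and the CCAAT boxes beside each other in the 6 genes of highest mean TPM among the 26 whose promoter held a CHR core near the start and a CCAAT box. Each runs 5′ to 3′ on the gene's strand from 150 bases before the start site to 30 after it, and capitals mark CHR cores and CCAAT boxes on either strand (a CCAAT box on the other strand reads ATTGG, and TTTGAA reads TTCAAA). Cenpa lies at chr5:30666736-30666915 on the forward strand, Racgap1 at chr15:99651627-99651806 on the reverse strand, Cdc25b at chr2:131186798-131186977 on the forward strand, Cks1b at chr3:89418262-89418441 on the reverse strand, Top2a at chr11:99024160-99024339 on the reverse strand and Ccnb2 at chr9:70421525-70421704 on the reverse strand, all in GRCm38.p6.
Cenpa: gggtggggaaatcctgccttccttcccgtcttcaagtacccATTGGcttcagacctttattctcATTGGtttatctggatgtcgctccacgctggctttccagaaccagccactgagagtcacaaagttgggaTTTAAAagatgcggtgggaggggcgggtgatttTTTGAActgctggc
Racgap1: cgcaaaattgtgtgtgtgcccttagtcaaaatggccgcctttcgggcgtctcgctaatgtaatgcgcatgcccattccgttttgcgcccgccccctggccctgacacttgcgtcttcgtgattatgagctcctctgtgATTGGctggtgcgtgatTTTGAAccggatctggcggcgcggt
Cdc25b: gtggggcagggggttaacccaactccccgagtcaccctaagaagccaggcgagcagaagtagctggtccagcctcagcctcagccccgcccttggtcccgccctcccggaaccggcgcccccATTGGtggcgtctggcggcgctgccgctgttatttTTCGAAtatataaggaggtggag
Cks1b: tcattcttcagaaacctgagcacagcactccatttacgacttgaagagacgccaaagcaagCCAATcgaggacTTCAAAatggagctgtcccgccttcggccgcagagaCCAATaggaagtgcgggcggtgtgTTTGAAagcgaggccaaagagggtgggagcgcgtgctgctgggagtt
Top2a: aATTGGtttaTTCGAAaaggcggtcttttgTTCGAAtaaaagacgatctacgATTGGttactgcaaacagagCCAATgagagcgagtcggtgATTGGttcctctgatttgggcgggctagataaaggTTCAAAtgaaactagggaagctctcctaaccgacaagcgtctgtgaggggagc
Ccnb2: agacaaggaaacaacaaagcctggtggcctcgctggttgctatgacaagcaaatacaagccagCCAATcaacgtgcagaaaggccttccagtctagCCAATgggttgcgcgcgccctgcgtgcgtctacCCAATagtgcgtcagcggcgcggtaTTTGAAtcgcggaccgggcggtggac
The Top2a stretch held 4 CCAAT boxes and 3 CHR cores and the Ccnb2 stretch 3 CCAAT boxes and 1 CHR core, whereas Racgap1 and Cdc25b held 1 of each.

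**Figure D1:**
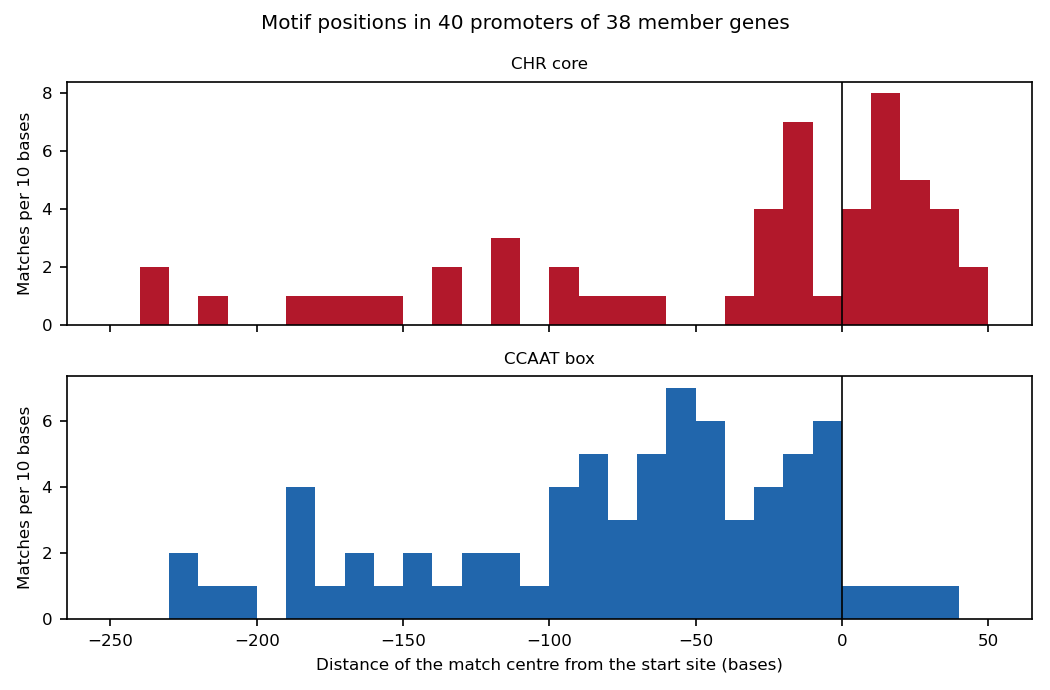
Positions of CHR cores (top) and CCAAT boxes (bottom) in the 40 promoters of 38 member genes, as the number of matches per 10 bases against distance from the start site. The CHR matches have their median at -14 bases, and 68 of the 72 CCAAT matches lie before the start site.

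Across the 46 genes as a whole, the depleted LC library held the most mitotic RNA and the isotype IPF-LC library the least. The members summed to 1337 CPM in depleted and 949 in isotype IPF-LC cells, and 2054 CPM in depleted and 1179 in isotype LC cells. In TPM, the sums were 1452 in depleted and 988 in isotype IPF-LC cells, and 1831 in depleted and 1215 in isotype LC cells. By single genes, the depleted LC library was the highest of the 4 for 36 of the 46 members (78.3%, against 22.1% of all 12231 genes), and the isotype IPF-LC library was the lowest for 31 (67.4%, against 24.6%). No member was highest in isotype IPF-LC cells and none was lowest in depleted LC cells. The most abundant transcripts per length were Cks2, Cenpa, Pttg1 and Racgap1, which together gave 62.0% of the summed TPM in depleted and 58.2% in isotype IPF-LC cells, and 46.2% in depleted and 50.7% in isotype LC cells.

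**Figure D2:**
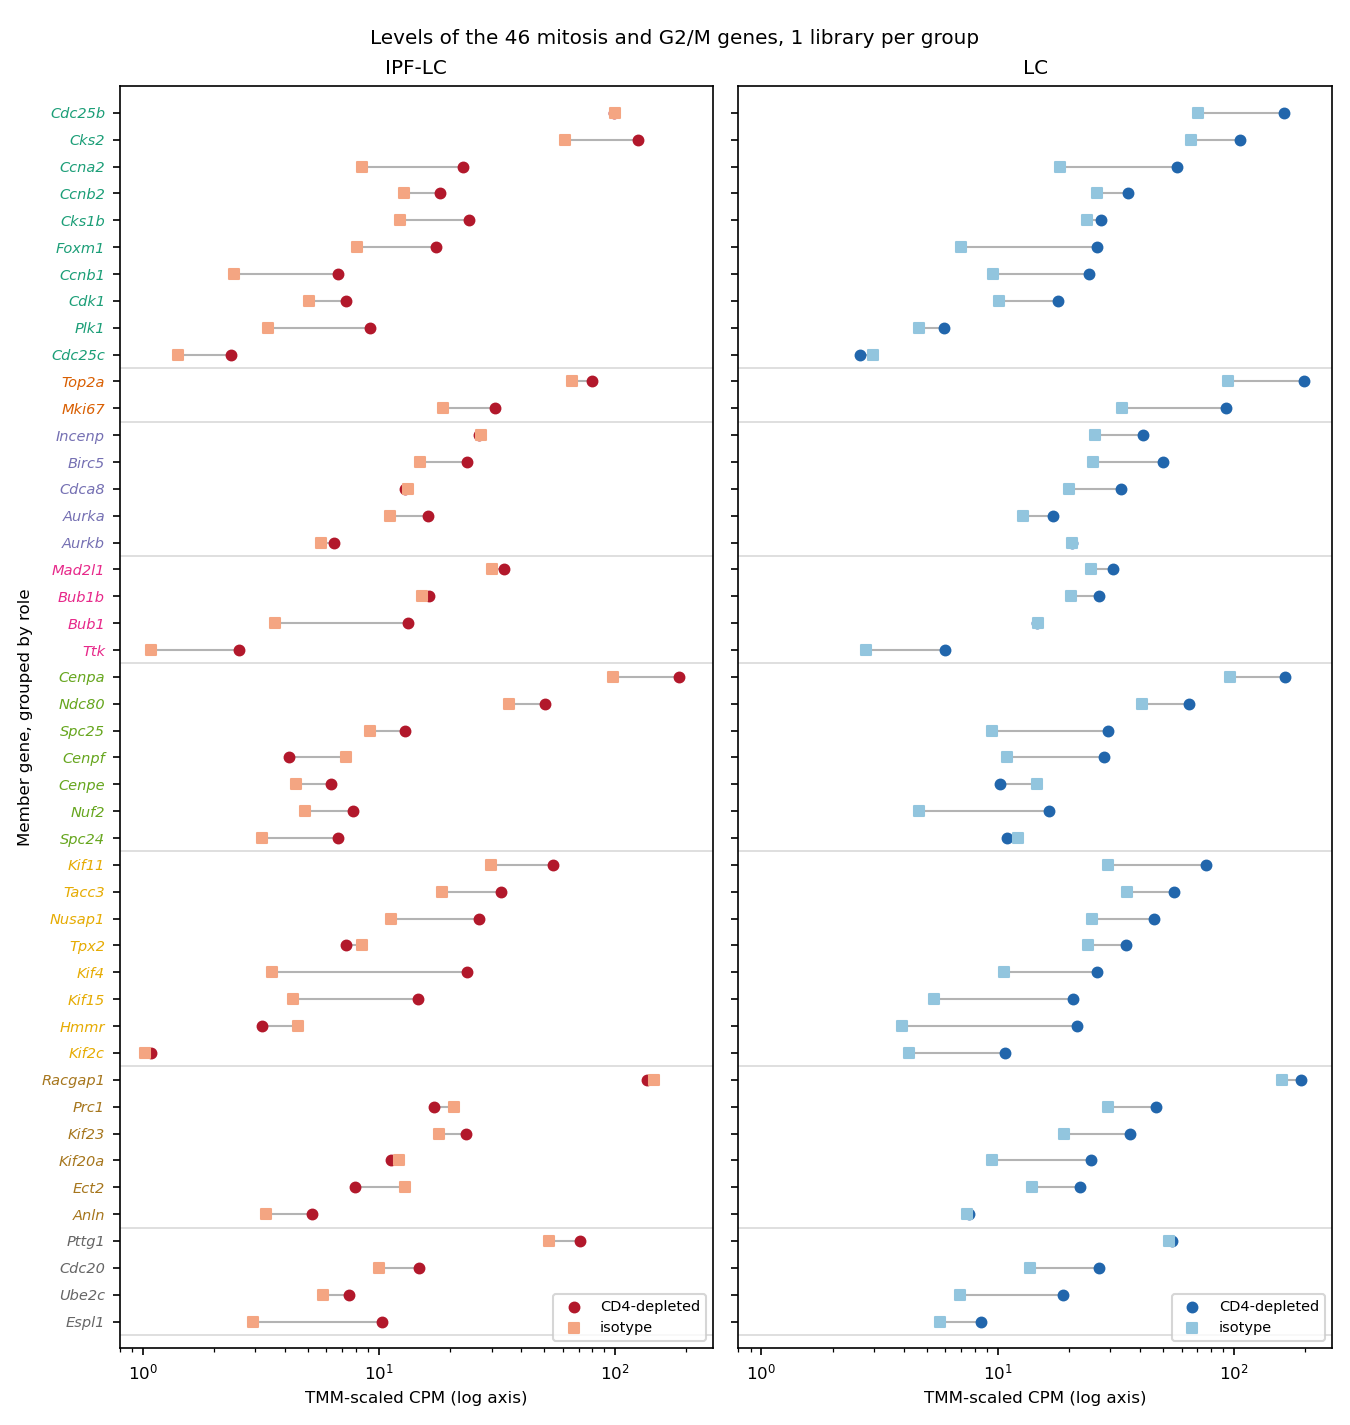
TMM-scaled CPM (log axis) of the 46 members in the CD4-depleted (circles) and isotype (squares) library of IPF-LC (left) and LC (right), grouped by role. In LC 42 of the 46 depleted values lie above the isotype value, and in IPF-LC 36 of 46.

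The effect of CD4 depletion was asked separately in each model, and these comparisons share no library. In IPF-LC, 12 of the 46 members were at least 2-fold higher in depleted cells, where 8.84% of all genes were, and 0 were at least 2-fold lower, where 13.6% of all genes were. Their median log2 ratio was 0.53, against -0.02 over all genes. In LC, 17 members were at least 2-fold higher, where 5.85% of all genes were, and 0 were at least 2-fold lower, where 15.4% were, with a median of 0.75 against 0.01 over all genes. The whole counting interval lay above 0 for 30 members in IPF-LC (35.1% of all genes) and for 37 in LC (35.0% of all genes). It lay below 0 for 4 members in IPF-LC (38.6% of all genes) and 1 in LC (35.0%). The members were thus higher after depletion for the most part, and 32 of 46 (69.6%) were above 0 in both models, where 28.6% of all genes were. Below 0 in both were 0 members, where 29.4% of all genes were.

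Across libraries the only test was the quasi-likelihood fit of edgeR with additive effects of model and antibody, made on 13050 genes with 1 residual degree of freedom. For depletion it called 0 of the 46 members at an adjusted p under 0.05 in either direction, and 0.0% of all genes. The unadjusted p lay under 0.05 for 13 members, all higher in depleted cells, where 3.13% of all genes were higher and 6.87% lower at that level. The smallest adjusted p in edgeR was 0.298, for Cenpa, whose fitted log2 change was 0.83 and which was higher in the depleted library of both models. Ccna2 had a fitted change of 1.51 (edgeR adjusted p = 0.3) and Kif11 1.11 (edgeR adjusted p = 0.332). On simulated counts with a dispersion close to the fitted one, the edgeR fit made no call at all, so the absence of calls does not show that members did not differ. In the same design DESeq2 called 1 member, Cenpa (DESeq2 adjusted p = 0.0342), and limma-voom 0. That 1 degree of freedom measures how unequal the depletion ratios of the models are, so a gene whose depletion ratio differs between the models has a large error here. No statement below rests on a test that was passed, and "higher" or "lower" describes these libraries.

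**Figure D3:**
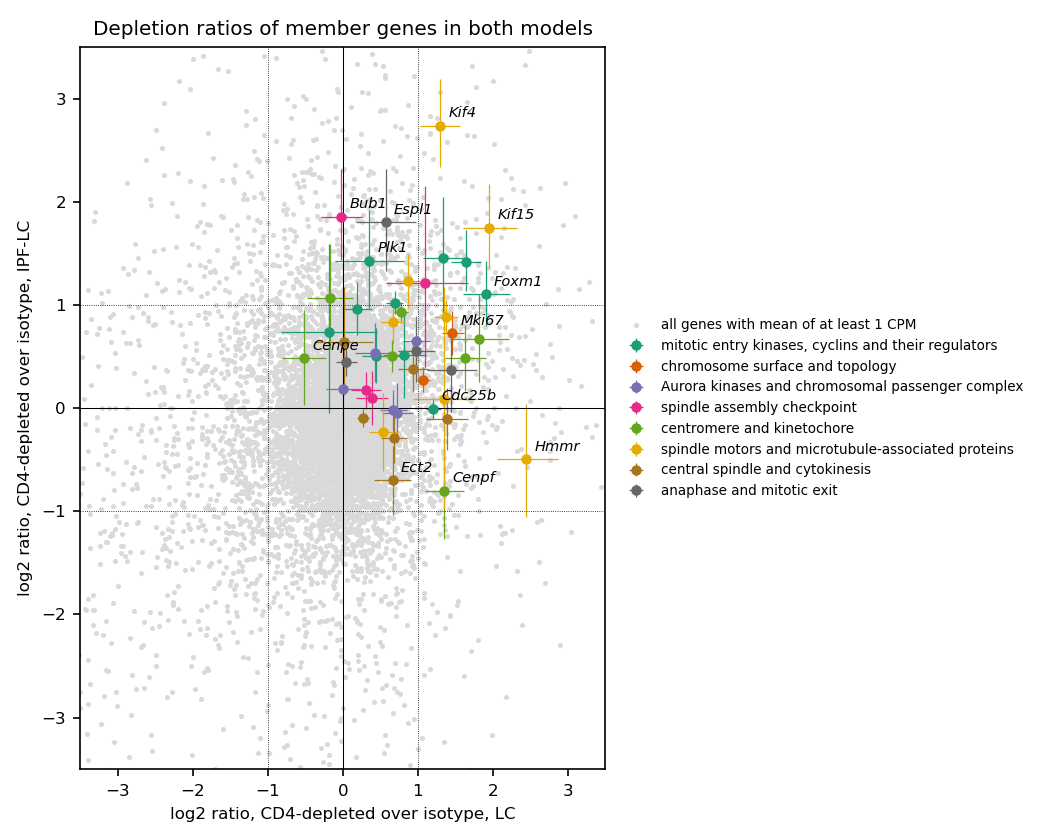
Depletion log2 ratios in IPF-LC (vertical) against LC (horizontal) for members, coloured by role with 95% counting intervals, over the other genes that passed the 1 CPM minimum in grey; dotted lines mark 2-fold, and genes beyond the axes are not drawn. Foxm1, Ccna2, Ccnb1, Kif4, Kif15 and Ttk are at least 2-fold higher in both models in CPM (1.65% of all genes), and 0 members lie below 0 in both (29.4% of all genes). In TPM, Ccnb1 is under 2-fold in IPF-LC (0.80) and Ttk in LC (0.63).

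Among the genes of mitotic entry, the cyclins of G2 were higher after depletion in both models. Cyclin A2 drives S and G2 progression, and its gene Ccna2 (ENSMUSG00000027715) had 22.6 CPM in depleted and 8.45 in isotype IPF-LC cells, and 57.6 CPM in depleted and 18.4 in isotype LC cells. Its log2 ratios were 1.42 (1.13 to 1.72) in IPF-LC and 1.64 (1.45 to 1.84) in LC. Ccnb1 (ENSMUSG00000041431), which encodes the cyclin B1 partner of CDK1, had 6.74 CPM in depleted and 2.43 in isotype IPF-LC cells, and 24.3 CPM in depleted and 9.58 in isotype LC cells. The ratios of Ccnb1 were 1.46 (0.92 to 2.05) in IPF-LC and 1.34 (1.07 to 1.63) in LC, and their intervals overlapped, although the level in depleted IPF-LC cells lay below that of isotype LC cells. In TPM the Ccnb1 ratios were 0.80 in IPF-LC and 1.14 in LC. Ccnb2, the other B cyclin of the list, showed smaller ratios of 0.51 (0.24 to 0.78) in IPF-LC and 0.44 (0.25 to 0.63) in LC. Cdk1, the kinase itself, stood at 7.25 CPM in depleted and 5.05 in isotype IPF-LC cells, and 17.9 CPM in depleted and 10.2 in isotype LC cells, with ratios of 0.52 (0.09 to 0.95) in IPF-LC and 0.82 (0.53 to 1.11) in LC.

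Foxm1 (ENSMUSG00000001517) encodes the forkhead factor that activates many of the other members, and its depleted library exceeded the isotype library by over 2-fold in each model. Foxm1 had 17.4 CPM in depleted and 8.06 in isotype IPF-LC cells, and 26.3 CPM in depleted and 6.99 in isotype LC cells, with ratios of 1.11 (0.80 to 1.43) in IPF-LC and 1.91 (1.6 to 2.23) in LC. Here isotype cells of the 2 models were close, and the depleted libraries lay above both. Plk1, the polo kinase that acts from mitotic entry to cytokinesis, had 9.17 CPM in depleted and 3.39 in isotype IPF-LC cells, and 5.93 CPM in depleted and 4.66 in isotype LC cells. Plk1 was therefore among the few members highest in depleted IPF-LC cells, at 1.43 (0.97 to 1.92), while in LC its interval held 0, at 0.35 (-0.11 to 0.81).

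The phosphatases that activate CDK1 behaved differently. Cdc25b had 99.1 CPM in depleted and 99.4 in isotype IPF-LC cells, and 162 CPM in depleted and 70.3 in isotype LC cells. The ratio was 1.21 (1.10 to 1.31) in LC and -0.01 (-0.11 to 0.10) in IPF-LC, where no difference was detectable at this depth. Cdc25c was near the lower end of the counts, between 22 and 46 in a library. It had 2.37 CPM in depleted and 1.41 in isotype IPF-LC cells, and 2.62 CPM in depleted and 2.98 in isotype LC cells. Neither ratio excluded 0, at 0.74 (-0.05 to 1.59) in IPF-LC and -0.18 (-0.83 to 0.45) in LC.

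The small CDK-binding subunits Cks1b and Cks2 are close relatives, and their depletion ratios differed mainly in LC. Cks2 (ENSMUSG00000062248) stood at 125 CPM in depleted and 61.4 in isotype IPF-LC cells, and 106 CPM in depleted and 65.7 in isotype LC cells, with ratios of 1.02 (0.91 to 1.14) in IPF-LC and 0.69 (0.58 to 0.81) in LC. Cks1b (ENSMUSG00000028044) stood at 24.0 CPM in depleted and 12.3 in isotype IPF-LC cells, and 27.3 CPM in depleted and 23.9 in isotype LC cells, with 0.96 (0.71 to 1.22) in IPF-LC and 0.19 (-0.01 to 0.39) in LC. Per length, Cks2 was the more abundant in each library, with 410.1 TPM against 56.1 TPM for Cks1b in depleted IPF-LC cells. In isotype IPF-LC cells these levels were 209 TPM for Cks2 and 29.7 TPM for Cks1b.

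The general marks of dividing cells showed the larger ratio in LC. Mki67 (ENSMUSG00000031004), whose product Ki-67 coats mitotic chromosomes, had 30.9 CPM in depleted and 18.7 in isotype IPF-LC cells, and 92.9 CPM in depleted and 33.7 in isotype LC cells. Its ratio was 0.73 (0.51 to 0.94) in IPF-LC and 1.46 (1.32 to 1.61) in LC. Top2a (ENSMUSG00000020914), the topoisomerase that untangles sister chromatids, had 79.6 CPM in depleted and 65.8 in isotype IPF-LC cells, and 198 CPM in depleted and 94.3 in isotype LC cells, with ratios of 0.27 (0.15 to 0.39) in IPF-LC and 1.07 (0.98 to 1.16) in LC. For both genes the depleted LC library stood clear of the other 3, which lay closer together.

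The Aurora kinases and the chromosomal passenger complex, which corrects faulty attachments and then guides cytokinesis, had 0 of 5 members at least 2-fold apart in either depletion comparison. Over all genes, 8.84% were at least 2-fold higher and 13.6% lower in IPF-LC, and 5.85% and 15.4% in LC. With 5 genes the group cannot be set apart from these shares. Birc5, which encodes the passenger protein survivin, had the largest depletion ratio of the 5 in both models, with 23.5 CPM in depleted and 14.97 in isotype IPF-LC cells, and 49.9 CPM in depleted and 25.2 in isotype LC cells. Its ratios were 0.65 (0.41 to 0.90) in IPF-LC and 0.98 (0.81 to 1.16) in LC. Cdca8, the borealin subunit, had 12.9 CPM in depleted and 13.3 in isotype IPF-LC cells, and 33.1 CPM in depleted and 20 in isotype LC cells, a ratio of -0.05 (-0.33 to 0.24) in IPF-LC and 0.73 (0.52 to 0.94) in LC. Aurkb, the catalytic subunit of the complex, was set apart by model rather than by antibody, with 6.48 CPM in depleted and 5.69 in isotype IPF-LC cells, and 20.7 CPM in depleted and 20.6 in isotype LC cells. Aurka, the spindle pole kinase, had ratios of 0.54 (0.25 to 0.83) in IPF-LC and 0.43 (0.16 to 0.71) in LC.

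The spindle assembly checkpoint, which delays anaphase until chromosomes are attached, was uneven. Bub1, a checkpoint kinase, had 13.3 CPM in depleted and 3.65 in isotype IPF-LC cells, and 14.7 CPM in depleted and 14.9 in isotype LC cells. The isotype IPF-LC library alone was low, so the ratio was 1.86 (1.44 to 2.31) in IPF-LC and -0.02 (-0.29 to 0.25) in LC. Its partner Bub1b, which encodes BUBR1, had 16.2 CPM in depleted and 15.2 in isotype IPF-LC cells, and 26.7 CPM in depleted and 20.4 in isotype LC cells, and the interval held 0 in IPF-LC, at 0.10 (-0.16 to 0.36), but not in LC, at 0.39 (0.18 to 0.61). Ttk, the MPS1 kinase at the head of the checkpoint, was weakly expressed at 2.57 CPM in depleted and 1.09 in isotype IPF-LC cells, and 6.0 CPM in depleted and 2.78 in isotype LC cells, with ratios of 1.21 (0.39 to 2.15) in IPF-LC and 1.10 (0.57 to 1.66) in LC. In TPM the Ttk ratios were 1.36 in IPF-LC and 0.63 in LC. Mad2l1, the MAD2 inhibitor of anaphase, varied little, between 24.7 and 33.9 CPM over the 4 libraries.

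Kinetochore and centromere genes included members with opposite directions in the 2 models. Cenpa (ENSMUSG00000029177), the histone H3 variant that marks centromeres, had 186 CPM in depleted and 97.8 in isotype IPF-LC cells, and 165 CPM in depleted and 96.0 in isotype LC cells, with ratios of 0.93 (0.84 to 1.02) in IPF-LC and 0.78 (0.69 to 0.87) in LC. Cenpf, a large protein of the outer kinetochore, had 4.17 CPM in depleted and 7.29 in isotype IPF-LC cells, and 28.2 CPM in depleted and 11 in isotype LC cells. Its ratio was below 0 in IPF-LC, at -0.80 (-1.27 to -0.35), and above 0 in LC, at 1.36 (1.10 to 1.62). Cenpe, a kinetochore motor, went the other way with 6.29 CPM in depleted and 4.48 in isotype IPF-LC cells, and 10.3 CPM in depleted and 14.7 in isotype LC cells, at 0.49 (0.03 to 0.95) in IPF-LC and -0.51 (-0.82 to -0.22) in LC.

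The 4 subunits of the NDC80 complex, which holds microtubules at the kinetochore as a single assembly, had unequal ratios. Nuf2 had 7.76 CPM in depleted and 4.86 in isotype IPF-LC cells, and 16.5 CPM in depleted and 4.66 in isotype LC cells, and Spc25 had 12.9 CPM in depleted and 9.21 in isotype IPF-LC cells, and 29.3 CPM in depleted and 9.45 in isotype LC cells. In LC these were among the larger ratios of the group, at 1.81 (1.44 to 2.22) for Nuf2 and 1.63 (1.36 to 1.91) for Spc25. Spc24, which forms a dimer with SPC25, had 6.74 CPM in depleted and 3.20 in isotype IPF-LC cells, and 10.9 CPM in depleted and 12.2 in isotype LC cells, so that its ratio was 1.07 (0.58 to 1.59) in IPF-LC and -0.16 (-0.47 to 0.14) in LC. Ndc80 itself was higher after depletion in both models, at 0.50 (0.34 to 0.66) in IPF-LC and 0.65 (0.51 to 0.80) in LC.

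Spindle motors and microtubule-associated proteins held the highest ratio of the 46 in each depletion comparison, while the lowest were those of the kinetochore genes Cenpf and Cenpe. Kif4 (ENSMUSG00000034311), a chromosome-bound kinesin, had 23.7 CPM in depleted and 3.52 in isotype IPF-LC cells, and 26.2 CPM in depleted and 10.7 in isotype LC cells. Its IPF-LC ratio of 2.74 (2.34 to 3.19) was the largest of the 46, with 1.29 (1.03 to 1.57) in LC. Kif15 and Kif11 are kinesins that keep the spindle bipolar. Kif15 had 14.7 CPM in depleted and 4.35 in isotype IPF-LC cells, and 20.9 CPM in depleted and 5.37 in isotype LC cells, with ratios of 1.75 (1.36 to 2.17) in IPF-LC and 1.95 (1.61 to 2.32) in LC, and Kif11 had ratios of 0.88 (0.71 to 1.05) in IPF-LC and 1.38 (1.22 to 1.54) in LC. Hmmr (ENSMUSG00000020330), a spindle protein also known as a hyaluronan receptor, had 3.21 CPM in depleted and 4.54 in isotype IPF-LC cells, and 21.7 CPM in depleted and 3.95 in isotype LC cells. The Hmmr ratio of 2.45 (2.06 to 2.88) was the largest in LC, while in IPF-LC the interval held 0, at -0.50 (-1.05 to 0.04).

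Of the remaining spindle genes, Tpx2 and Kif2c had intervals that held 0 in IPF-LC and lay above 0 in LC, while Nusap1 and Tacc3 were above 0 in both. Tpx2, the activator of Aurora A, had 7.25 CPM in depleted and 8.51 in isotype IPF-LC cells, and 35.02 CPM in depleted and 24.1 in isotype LC cells, with -0.23 (-0.61 to 0.14) in IPF-LC and 0.54 (0.35 to 0.73) in LC. In TPM the Tpx2 ratios were -0.88 in IPF-LC and 0.45 in LC. Kif2c, the microtubule-depolymerising kinesin MCAK, had 17 and 16 counts in depleted and isotype IPF-LC cells, against 169 and 65 counts in depleted and isotype LC cells. Nusap1 and Tacc3, which stabilise spindle microtubules, were higher after depletion in both models, Nusap1 at 1.23 (0.97 to 1.49) in IPF-LC and 0.87 (0.69 to 1.05) in LC and Tacc3 at 0.83 (0.62 to 1.04) in IPF-LC and 0.67 (0.51 to 0.83) in LC.

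Of the 6 genes of the central spindle and of cytokinesis, 4 were below 0 in IPF-LC, where 51.4% of all genes were, and 3 of these had an interval clear of 0. The median log2 ratio of the 6 was -0.10 in IPF-LC and 0.67 in LC. In LC all 6 were above 0, as were 50.6% of all genes, though the interval of Anln held 0. Ect2, the exchange factor that activates RhoA at the cleavage furrow, had 7.96 CPM in depleted and 12.9 in isotype IPF-LC cells, and 22.3 CPM in depleted and 14.0 in isotype LC cells. Its ratio was -0.70 (-1.03 to -0.37) in IPF-LC and 0.66 (0.42 to 0.92) in LC. Kif20a, a kinesin of the central spindle, had 11.3 CPM in depleted and 12.2 in isotype IPF-LC cells, and 24.8 CPM in depleted and 9.45 in isotype LC cells, with -0.11 (-0.41 to 0.20) in IPF-LC and 1.39 (1.11 to 1.67) in LC. Prc1, which bundles the antiparallel microtubules of the midzone, had 17.1 CPM in depleted and 20.9 in isotype IPF-LC cells, and 46.8 CPM in depleted and 29.2 in isotype LC cells. Racgap1, the partner of the kinesin KIF23 in centralspindlin, had the highest mean CPM of the members over the 4 libraries, though Cenpa was higher in depleted IPF-LC and Top2a in depleted LC cells. It stood at 136 CPM in depleted and 145 in isotype IPF-LC cells, and 192 CPM in depleted and 159.6 in isotype LC cells, and its ratios were small, at -0.09 (-0.18 to -0.01) in IPF-LC and 0.27 (0.19 to 0.34) in LC. Anln, the furrow scaffold anillin, had 5.20 CPM in depleted and 3.33 in isotype IPF-LC cells, and 7.53 CPM in depleted and 7.44 in isotype LC cells. Kif23 had CPM ratios of 0.38 (0.15 to 0.61) in IPF-LC and 0.94 (0.73 to 1.15) in LC, but TPM ratios of -0.04 in IPF-LC and 0.21 in LC.

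Of the genes of anaphase and mitotic exit, all 4 had ratios above 0 in both models, as did 28.6% of all genes. The intervals of Ube2c in IPF-LC and of Pttg1 in LC held 0. Cdc20, the activator of the anaphase-promoting complex, had 14.8 CPM in depleted and 10.05 in isotype IPF-LC cells, and 26.9 CPM in depleted and 13.7 in isotype LC cells, with ratios of 0.55 (0.26 to 0.86) in IPF-LC and 0.98 (0.74 to 1.22) in LC. Ube2c, the ubiquitin-conjugating enzyme of that complex, had 7.51 CPM in depleted and 5.82 in isotype IPF-LC cells, and 18.9 CPM in depleted and 6.92 in isotype LC cells, and its LC ratio was 1.45 (1.13 to 1.78) against 0.36 (-0.04 to 0.78) in IPF-LC. Espl1, which encodes separase, had 10.3 CPM in depleted and 2.94 in isotype IPF-LC cells, and 8.48 CPM in depleted and 5.69 in isotype LC cells, with ratios of 1.80 (1.33 to 2.32) in IPF-LC and 0.57 (0.18 to 0.98) in LC. In TPM the LC ratio of Espl1 was -0.30, since its deposited transcript length differed between the libraries. Pttg1, which encodes securin, the inhibitor of separase, was among the abundant members, at 71.1 CPM in depleted and 52.3 in isotype IPF-LC cells, and 54.7 CPM in depleted and 53.1 in isotype LC cells. The ratio of Pttg1 was 0.44 (0.31 to 0.58) in IPF-LC and 0.04 (-0.10 to 0.18) in LC.

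The depletion ratios of the models were then subtracted, IPF-LC minus LC, with a 95% interval from the 4 counts that covers counting error only. The median difference over the members was -0.26, and 0.07 when the libraries were scaled to the 9 general T cell genes, so its direction depended on the scaling. For 21 of the 46 the interval lay below 0, so that the LC ratio was the larger, and for 11 it lay above 0, while for 14 it held 0. Over all genes these shares were 33.4, 35.2 and 31.4%, against 45.7, 23.9 and 30.4% of the members. Hmmr had the most negative difference at -2.95 (-3.60 to -2.30), followed by Cenpf at -2.16 (-2.66 to -1.65), Kif20a at -1.49 (-1.90 to -1.09) and Ect2 at -1.36 (-1.77 to -0.96). Bub1 had the most positive at 1.88 (1.38 to 2.37), followed by Kif4 at 1.45 (0.96 to 1.93), Spc24 at 1.23 (0.66 to 1.80) and Espl1 at 1.23 (0.62 to 1.84). The interaction has no residual degree of freedom with 1 library per group, so these differences were not tested.

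**Figure D4:**
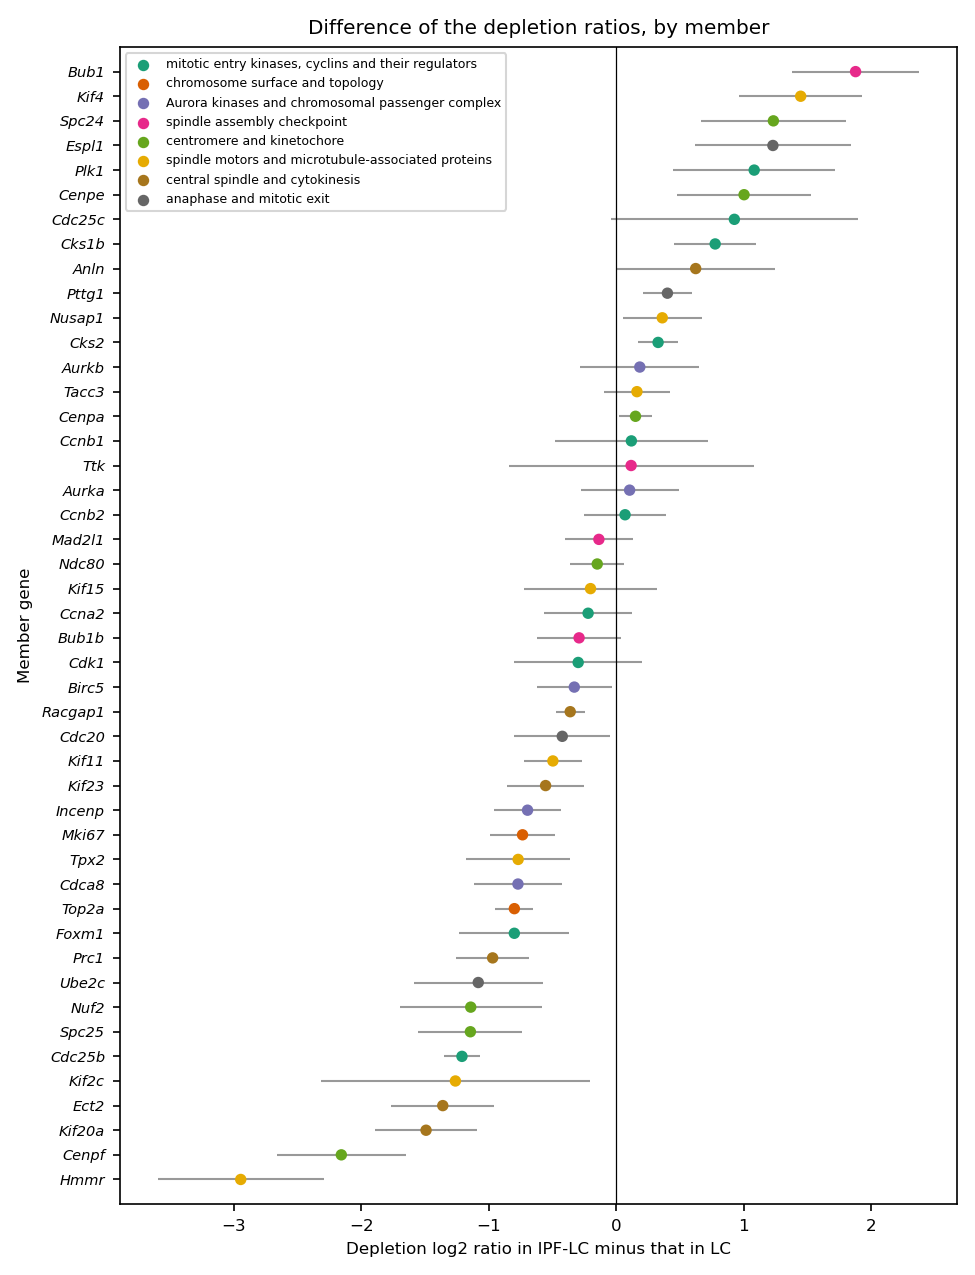
Depletion log2 ratio in IPF-LC minus that in LC for each member, with 95% intervals from counting error, coloured by role. Hmmr, Cenpf and Kif20a lie farthest below 0 and Bub1 and Kif4 farthest above.

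The models were compared next, within each antibody. These comparisons reuse the same 4 libraries as the depletion ratios. Among depleted cells, 19 of the 46 members were at least 2-fold lower in IPF-LC than in LC, where 7.61% of all genes were, and 0 were at least 2-fold higher, where 9.59% were. The median log2 ratio of IPF-LC over LC was -0.74, against 0.00 over all genes. The counting interval lay below 0 for 35 members (32.3% of all genes) and above 0 for 4 (35.1% of all genes), which were Plk1, Cks2, Cenpa and Pttg1. The lowest ratios were those of Kif2c, -3.27 (-4.12 to -2.58), Cenpf, -2.75 (-3.16 to -2.38), and Hmmr, -2.75 (-3.22 to -2.33). Mki67 stood at -1.59 (-1.74 to -1.44).

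With isotype antibody, 15 members were at least 2-fold lower in IPF-LC than in LC, where 11.7% of all genes were, and 0 were at least 2-fold higher, where 5.32% were. The median was -0.50, against -0.01 over all genes. The interval lay below 0 for 28 members (35.0% of all genes) and above 0 for 3 (33.4% of all genes), which were Kif20a, Cdc25b and Mad2l1. Bub1 had the lowest ratio, -2.02 (-2.47 to -1.6), followed by Kif2c, -2.01 (-2.93 to -1.23), Ccnb1, -1.96 (-2.53 to -1.46), and Spc24, -1.92 (-2.41 to -1.48). Aurkb was lower in IPF-LC with either antibody, at -1.67 (-2.01 to -1.35) after depletion and -1.85 (-2.21 to -1.51) with isotype antibody. Of the 35 members that averaged 10 CPM or more, 9 were at least 2-fold lower in isotype IPF-LC than in isotype LC cells, where 4.1% of such genes were. In contrast, Kif11, Spc25, Nuf2 and Cenpa lay between -0.04 and 0.06 with isotype antibody.

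For the model term, the additive edgeR fit called 0 of the 46 members and 0.0% of all genes at an adjusted p under 0.05, and DESeq2 and limma-voom also called 0 members. The unadjusted edgeR p lay under 0.05 for 12 members, all lower in IPF-LC, where 1.33% of all genes were lower and 0.713% higher at that level. These 12 included Tpx2, with a fitted log2 change of -1.91, Mki67 with -1.25 and Aurkb with -1.79, each at an edgeR adjusted p of 1 and lower in IPF-LC with both antibodies. In TPM the model ratio of Tpx2 was -1.82 after depletion but -0.49 with isotype antibody. Its deposited length was 1892 bases in isotype IPF-LC and 3689 in isotype LC cells.

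Other genes of the cell cycle were taken from pathway lists, chosen like the members with earlier results of these data known. Apart from Ccnd1, the genes named from them were among the 3 highest or 3 lowest of a list by mean depletion ratio. They show the extremes of a list and are no separate evidence for the members. Of 64 measured mitotic genes outside the 46, 21 exceeded 2-fold upward in depleted IPF-LC cells and 4 downward. Their median was 0.36, and also 0.36 with genes at 0 counts set to a floor of 3 counts. That floor could not move the median, because these genes lay above it either way. In LC 24 exceeded 2-fold upward and 1 downward, with a median of 0.84. Over all genes, 8.84% were at least 2-fold higher and 13.6% lower in IPF-LC, and 5.85% and 15.4% in LC. Depdc1a and Cdca2, both linked to mitosis, were listed at 0 counts in isotype IPF-LC cells but had 179 and 129 counts in depleted IPF-LC cells. With that floor in place of 0 they were 59.8-fold and 43.1-fold higher after depletion in IPF-LC. The lower ends of their counting intervals were log2 ratios of 5.59 for Depdc1a and 5.11 for Cdca2. In LC the ratios were 0.94 (0.61 to 1.28) for Depdc1a and 0.22 (-0.07 to 0.51) for Cdca2. In all, 5 of the 65 listed genes were at 0 in isotype IPF-LC cells, and 0 of the 65 were at 0 in another library. The share of all genes at 0 in isotype IPF-LC cells alone was not counted. Kifc1, a minus-end kinesin, had a ratio of -3.31 (-4.55 to -2.39) in IPF-LC and 1.00 (0.52 to 1.51) in LC.

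The 43 DNA replication genes had similar medians in both models, 0.53 in IPF-LC and 0.50 in LC, with 8 at least 2-fold higher in each model, 1 lower in IPF-LC and 0 lower in LC. Mcm10, a replication initiation factor, had ratios of 1.38 (0.89 to 1.92) in IPF-LC and 1.80 (1.46 to 2.17) in LC. Ccne2, which encodes cyclin E2, had 1.62 (1.3 to 1.95) in IPF-LC and 1.15 (0.95 to 1.35) in LC. Cdc7, the kinase that fires origins, was lower in both, at -1.09 (-1.28 to -0.89) in IPF-LC and -0.32 (-0.53 to -0.11) in LC. The summed replication level was 2384 CPM in depleted and 1879 in isotype IPF-LC cells, and 3009 CPM in depleted and 2303 in isotype LC cells.

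Among 22 genes of the E2F, RB, MuvB and NF-Y factors that govern these promoters, after depletion in IPF-LC 4 were at least 2-fold higher and 2 lower, and 3 were higher and 0 lower in LC. Of all genes, 8.84% were 2-fold higher and 13.6% lower in IPF-LC, and 5.85% and 15.4% in LC. E2f8, E2f1 and E2f7 were the highest by the mean of both ratios, and E2f8, an E2F repressor, stood at 1.78 (1.08 to 2.58) in IPF-LC and 2.93 (2.30 to 3.69) in LC. Nfya, the regulatory subunit of NF-Y, was at -1.6 (-2.14 to -1.11) in IPF-LC and 0.90 (0.45 to 1.38) in LC. The 16 genes of the anaphase-promoting complex and its regulators, which many cells express through the cycle, had medians of -0.27 and -0.05, with 0 at least 2-fold higher in either model, and 1, Anapc7, at least 2-fold lower in IPF-LC.

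The 8 genes of G1 cyclins, kinases and their inducers were mixed, with 3 above and 5 below 0 in IPF-LC (median -0.23) and 2 above and 6 below 0 in LC (median -0.32). In IPF-LC 1 was at least 2-fold higher and 0 lower, and in LC 0 were higher and 2 lower. The same thresholds took in 8.84 and 13.6% of all genes in IPF-LC, and 5.85 and 15.4% in LC. Cdk6, a kinase of G1, stood at 0.91 (0.71 to 1.11) in IPF-LC and -0.34 (-0.49 to -0.18) in LC, and Cdc25a, a phosphatase that activates CDK2, at 0.27 (0.03 to 0.51) in IPF-LC and 0.52 (0.30 to 0.75) in LC. Cdk2, which acts at S phase entry, stood at -0.06 (-0.24 to 0.12) in IPF-LC and 0.43 (0.25 to 0.61) in LC. Ccnd1, with between 3 and 58 counts in a library, had 2.15 (0.50 to 4.76) in IPF-LC and -1.85 (-2.78 to -1.06) in LC. Ccnd2 and Ccnd3, which encode D cyclins, were lower after depletion in both models, Ccnd2 at -0.69 (-0.74 to -0.64) in IPF-LC and -0.31 (-0.36 to -0.26) in LC and Ccnd3 at -0.53 (-0.60 to -0.45) in IPF-LC and -0.71 (-0.79 to -0.63) in LC. Myc, a growth factor-induced transcription factor, was lower as well, at -0.62 (-0.72 to -0.51) in IPF-LC and -1.19 (-1.29 to -1.08) in LC. Of 15 measured CDK inhibitors, inhibitory kinases and antiproliferative genes, 0 were 2-fold apart in IPF-LC, and in LC 1 was higher, Cdkn2c at 1.33 (0.97 to 1.72), and 1 lower, Cdkn1a at -1.28 (-1.38 to -1.18). Klf2, a transcription factor of resting T cells, was higher after depletion in both models, at 0.57 (0.52 to 0.62) in IPF-LC and 0.98 (0.92 to 1.04) in LC.

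**Figure D5:**
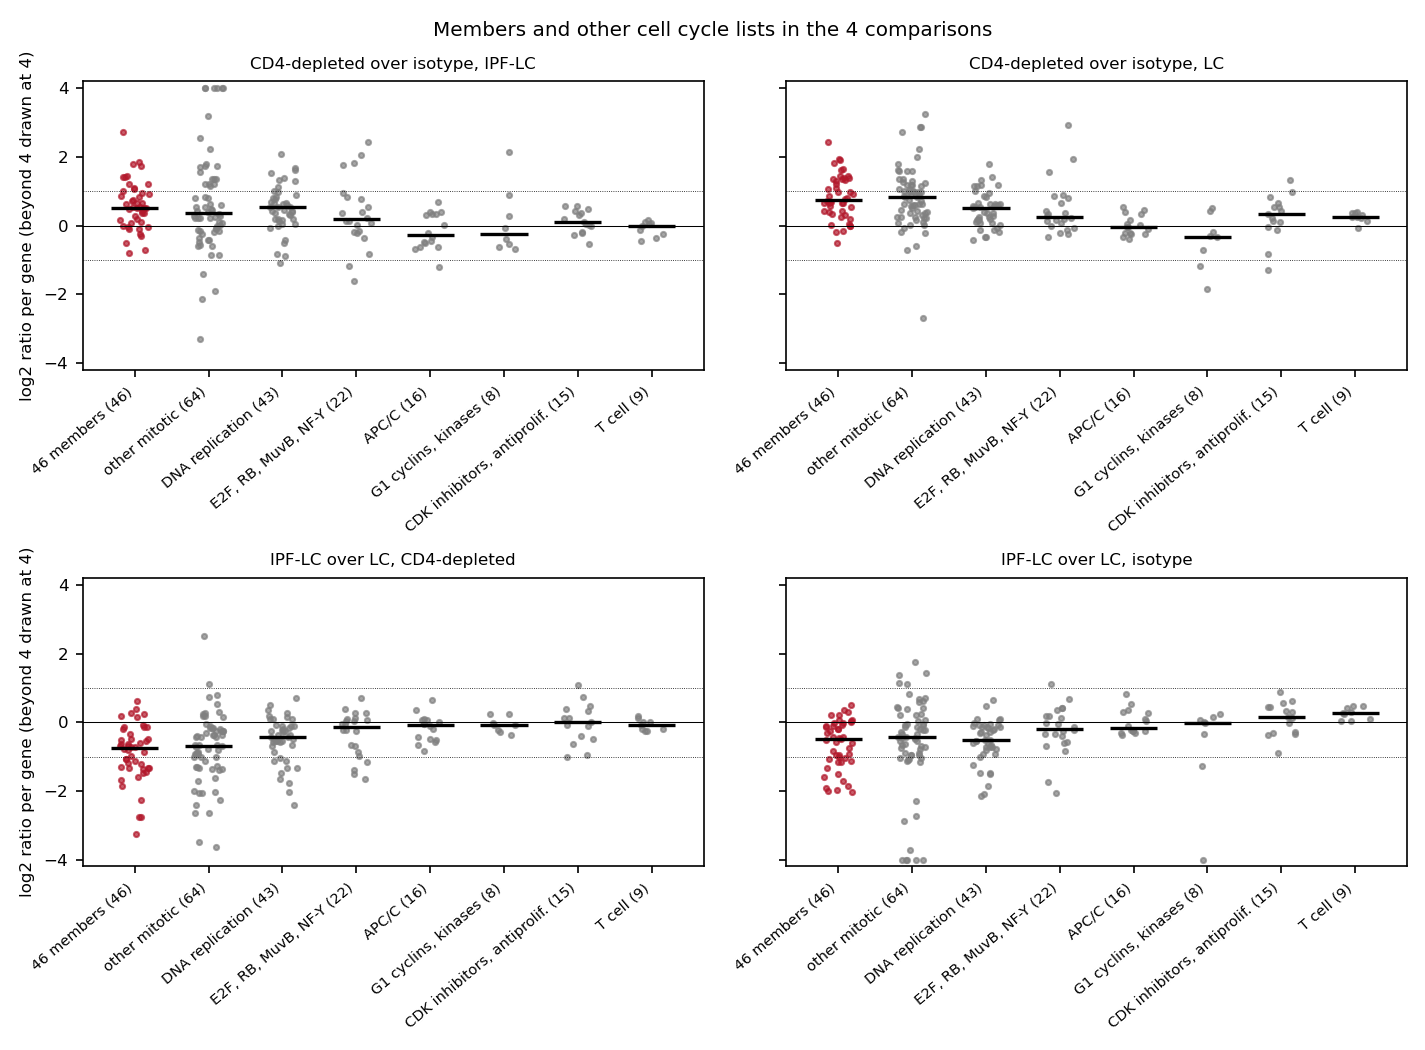
Log2 ratio of each member (red) and of each gene of other cell cycle lists and of a T cell list (grey) in the 4 comparisons, with the number of genes in parentheses, black bars at medians and values beyond 4 drawn at 4. The members' medians are 0.53 and 0.75 in the depletion comparisons and -0.74 and -0.50 in the model comparisons.

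Markers of other cells differed between the same libraries. Summed over 14 markers of macrophages and monocytes, the level was 1138 CPM in depleted and 3002 in isotype IPF-LC cells, and 359 CPM in depleted and 3057 in isotype LC cells, with 3, 1, 5 and 0 of them at 0 in that order. Csf1r, the macrophage growth factor receptor, had 4.56 CPM in depleted and 40.1 in isotype IPF-LC cells, and 0.128 CPM in depleted and 148 in isotype LC cells. The 9 CD4 and regulatory T cell markers summed to 592 CPM in depleted and 223 in isotype IPF-LC cells, and 535 CPM in depleted and 348 in isotype LC cells. Of this list, 7 were at least 2-fold higher and 1 lower after depletion in IPF-LC, where 8.84% and 13.6% of all genes were. In LC 3 were higher and 0 lower, where 5.85% and 15.4% of all genes were. Foxp3 of that list had 29.3 CPM in depleted and 1.47 in isotype IPF-LC cells, and 32.5 CPM in depleted and 3.88 in isotype LC cells, while Cd4 had 0 and 73 counts in depleted and isotype IPF-LC cells and 16 and 12 in depleted and isotype LC cells. The 9 general T cell genes summed to 4286 CPM in depleted and 4779 in isotype IPF-LC cells, and 4522 CPM in depleted and 4024 in isotype LC cells, and none of them was 2-fold apart in any of the 4 comparisons. Natural killer markers summed to between 43.3 and 109 CPM, B and plasma cell markers to between 26.4 and 50.9, endothelial markers to between 136 and 271 and epithelial markers to between 15.2 and 75.1 CPM. Neutrophil markers summed to 3.59 CPM in depleted and 8.0 in isotype IPF-LC cells, and 3.0 CPM in depleted and 139 in isotype LC cells. Fibroblast markers summed to 5.58 CPM in depleted and 38.5 in isotype IPF-LC cells, and 4.72 CPM in depleted and 88.3 in isotype LC cells. The isotype LC library, to which the LC depletion ratios and the isotype model ratios are set, was the highest for both lists. It was also the highest for the macrophage, natural killer, endothelial and epithelial sums, but not for the B cell or CD4 sums. The part of these cells in the member ratios was not tested. When the libraries were scaled to the 9 T cell genes, the members' median depletion ratio was 0.68 in IPF-LC and 0.58 in LC.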

How the data were processed

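Of the deposited values, the expected counts are estimated reads per gene, not normalised, and were rounded to whole numbers. The deposited TPM values were used to compare genes. The deposited FPKM values were not used. The length columns, per the file headers, give gene length in bases and served in 1 check. STAR 2.7.11a, RSEM 1.3.3, fastp 0.23.4 and MultiQC 1.25.2 are listed, with build GRCm39 and no roles, in the submitters' processing notes. Whether counting used strand is not given in the sources used here. Totals were 16217677, 15439173, 15767811 and 14946579 in depleted and isotype IPF-LC and depleted and isotype LC cells.

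Ratios used TMM factors (edgeR 4.0.16), a prior count of 0.5 and exact binomial 95% intervals, where the mean reached 1 CPM. Called means at least 2-fold apart. The additive model used glmQLFit and filterByExpr, with Benjamini-Hochberg adjustment over 13050 genes. DESeq2 1.42.0 and limma 3.58.1 (voom) were alternatives. The fit was tested on simulated data: it recovered changed genes at low dispersion and none at a dispersion close to the fitted one. The fitted common dispersion was 0.228.

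The members and lists were chosen with earlier results of these data known. Values in all libraries are given for 11 fixed members and for the highest and lowest of each of the 8 role groups in each depletion comparison. To these come members with opposite directions of at least 1.5-fold, and a few others described beside them. Of the other pathway lists, the genes named were taken from the 3 highest and 3 lowest by mean depletion ratio, and Ccnd1 was added. Because the reference annotation is of the older build GRCm38, gene coordinates other than RefSeq promoters are not given.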

Additional observations from a re-analysis of the deposited data

Results flagged for a closer look

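Opposite directions in the 2 models, with both counting intervals clear of 0, were found for 5 members (10.9%), against 19.5% of all genes, so such opposition was no more common among members than among all genes. These differences between the models were not tested, since each group has 1 library. Cenpf had a depletion log2 ratio of -0.80 in IPF-LC and 1.36 in LC. Ect2 had -0.70 in IPF-LC and 0.66 in LC, and Prc1 had -0.29 in IPF-LC and 0.68 in LC. Racgap1 had -0.09 in IPF-LC and 0.27 in LC, a small ratio in each. Cenpe went the other way, with 0.49 in IPF-LC and -0.51 in LC. Of these genes, Ect2, Prc1 and Racgap1 belong to the 6 genes of the central spindle and of cytokinesis.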

How the results depend on the processing

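The alternatives were other scalings (DESeq2 size factors, library totals, 9 T cell genes), the deposited TPM, a prior count of 2, other minimum levels and other call rules. Under the 7 alternatives that can move a median (all but the call rules), the members' median kept its sign in each of the 4 comparisons: between 0.45 and 0.68 for depletion in IPF-LC, between 0.58 and 0.78 for depletion in LC, between -0.90 and -0.67 for IPF-LC over LC after depletion, and between -0.75 and -0.44 with isotype antibody. The median difference of the depletion ratios did not keep its sign: it was 0.07 when the libraries were scaled to the T cell genes, so that no direction is drawn from it. Scaling to the T cell genes moved the median of all genes by up to -0.25, in the isotype model comparison, and the members' median relative to it stayed at -0.49. Under a call at 1.5-fold, 21 members were higher and 2 lower after depletion in IPF-LC (17.5 and 22.5% of all genes), 30 were higher in LC (12.8%), and 1 was higher and 30 were lower in depleted IPF-LC than in depleted LC cells (16.3 and 14.3%). With the whole counting interval beyond 2-fold, 5 members were higher after depletion in IPF-LC (4.99% of all genes) and 8 were lower in isotype IPF-LC than in isotype LC cells (7.4%). With a mean of at least 10 CPM, which 35 members reached, 9 were lower in isotype IPF-LC cells, where 4.1% of such genes were. DESeq2 called 1 member higher after depletion and edgeR 0. Over all genes, edgeR called 0 for depletion, DESeq2 100 higher and 381 lower, and edgeR with a mean of at least 10 CPM 39 higher and 95 lower, of which 0 were members. For the model term DESeq2 called 5 genes lower. Of 310 recomputed depletion ratios of the members given in full, 288 stayed within their counting interval, 22 moved outside it and 0 reversed a 2-fold difference. Under DESeq2 size factors, library totals and a prior count of 2, 0 of 62 moved each time. The 22 were 13 of 62 under the deposited TPM and 9 of 62 under scaling to the T cell genes. The cause was not tested. No paired analysis was possible because each group has 1 library and the labels give no replicate numbers. Leaving out a library would remove a whole group and was not done, and depth limits the ratios of the 11 members under 10 CPM most.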

Other observations

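The deposited gene length of a member is an average over its transcripts weighted by their abundance, and for some members it differed between libraries, so that TPM and CPM ratios diverged. In 7 members (Ccnb1, Cdc25c, Foxm1, Incenp, Tpx2, Hmmr and Espl1) the depletion ratio in IPF-LC differed by over 0.5 between the units. The depletion ratio in LC did so in 4 members (Cenpf, Kif23, Anln and Espl1). The sign of the depletion ratio differed between CPM and TPM for 6 members in IPF-LC (Cdc25b, Cdc25c, Incenp, Kif2c, Hmmr and Kif23) and for 2 in LC (Aurkb and Espl1). The sign of the model ratio differed for 3 members after depletion (Foxm1, Aurka and Espl1). With isotype antibody it differed for 6 (Incenp, Cenpa, Spc25, Kif11, Hmmr and Kif23). Espl1 had a length of 5900 bases in depleted and 4332 in isotype IPF-LC cells, and 2828 in depleted and 1735 in isotype LC cells. Its LC depletion ratio was 0.57 in CPM but -0.30 in TPM. Foxm1 had 2213 bases in depleted IPF-LC cells, against 3763 in isotype IPF-LC cells, 3970 in depleted LC cells and 3757 in isotype LC cells. Its IPF-LC depletion ratio was 1.11 in CPM and 1.87 in TPM. Among depleted cells Foxm1 was lower in IPF-LC than in LC in CPM (17.4 against 26.3) but higher in TPM (11.43 against 9.36). Cenpf had 3797 bases in depleted and 4270 in isotype IPF-LC cells, and 8336 in depleted and 5998 in isotype LC cells. Which transcripts lay behind these averages was not analysed here.

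Expected counts were not whole in at least 1 library for 6 members, Kif20a, Ccna2, Kif4, Tacc3, Prc1 and Cks2. In the GENCODE M21 annotation, of the older build, exons of 14 members overlap those of another gene. Kif20a, with 900 counts over the 4 libraries, overlaps Cdc23, with 3553, on the other strand, and Kif4, with 1000 counts, overlaps Pdzd11, with 1083. The counts of such pairs are uncertain where strand was not used.

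Members with a CHR core within 60 bases of the start had a median depletion ratio of 0.51 in IPF-LC and 0.78 in LC (29 genes). Those without had medians of 0.67 and 0.87 in IPF-LC and LC (9 genes), and both sets spanned a wide range, from -0.51 to 2.45 and from 0.04 to 1.81 in LC.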
